A study of Homo sapiens with 15 samples.

Results

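The stretch described here is a run of neighbouring genes on the long arm of chromosome 15, in bands 15q21 to 15q22, from TMOD2 and TMOD3 to TLN2. It was chosen by the RNA values of the same arrays, the difference between 1 T-DM1-resistant clone, clone 3, and the parental line, in which its genes lay lower in the clone. That difference is therefore given as a description, and nothing is read from the counts of its limma calls. The list names 40 genes. Of these, 24 had a probe set with a gene symbol among the 14884 genes with a symbol in the series, and 21 of the 12147 genes tested were members, with the brightest probe set standing for each gene. ONECUT1 and FOXB1, both transcription factors, and UNC13C, which primes synaptic vesicles, had a symbol but did not pass the filter on dim probe sets; over all arrays they lay between 3.00 and 3.63, 2.52 and 2.92, and 2.48 and 2.89 in this order. The other 16 listed genes had no symbol and were not analysed here: GNB5, MYO5A, ARPP19, FAM214A, RAB27A, PIGB, CCPG1, NEDD4, RFX7, ALDH1A2, LIPC, MINDY2, SLTM, FAM81A, GCNT3 and GTF2A2.

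Total RNA was measured on 15 Affymetrix arrays in 5 groups of 3 biological replicates, as the labels call them: parental BT474, a human breast cancer line with amplified HER2, and 4 derivatives, clone 1 (labelled C#1), clone 2 (C#2), clone 3 (C#3) and clone 6 (C#6). The derivatives arose after long exposure of the parental cells to T-DM1 (trastuzumab emtansine), which brings a toxin that blocks microtubules into cells with HER2 on their surface. They were cloned from single cells and grown for 3 months with 5 nM T-DM1; the labels do not say if it was still there when RNA was taken. Each group is 1 clone or the uncloned line, so its arrays replicate that culture only, and no clone without selection was measured. Selection by the drug, cloning and long culture cannot be told apart, and p-values measure the spread between these samples.

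Genes that lie side by side on a chromosome share its copies of DNA and, to a degree, its chromatin, so their RNA can move together although their products do unrelated work. BT474, like many breast cancer lines, has a rearranged genome with unequal copies of its chromosomes. The arrays measured RNA and not DNA, and the number of DNA copies in these clones is not analysed here. The products of the stretch include a cell-surface protease (ADAM10), a ubiquitin ligase of TGF-beta signalling (RNF111), several proteins that bind actin filaments or cell junctions, and regulators of transcription.

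On the log2 scale, the upper quartile of an array was 5.80 to 5.96. Arrays of 1 group correlated at 0.985 to 0.993 over probe sets and arrays of different groups at 0.975 to 0.991, where probe sets are not independent points. Of 16 luminal breast epithelium markers, 14 had a symbol and all 14 were tested; their mean lay between 9.01 and 9.51 in every array. It was higher in the parental arrays (9.47 to 9.51) than in those of every clone (9.01 to 9.19 in clone 1, 9.16 to 9.33 in clone 2, 9.11 to 9.28 in clone 3 and 9.18 to 9.32 in clone 6). Single markers moved both ways. The GATA3 mean was 9.12 in parental cells and 6.23, 5.98, 8.36 and 6.77 in clones 1, 2, 3 and 6. That of TFF1 was 10.81 in parental cells and 11.51, 11.97, 11.40 and 12.32 in the same order. The 2 of 4 basal markers with a symbol averaged 3.44 to 3.81 per array, the 2 of 3 endothelial ones 3.24 to 3.76, and the 3 of 7 mesenchymal ones 4.40 to 4.91, with VIM at a mean of 7.24 in parental cells and 6.14, 6.21, 6.71 and 6.00 in clones 1, 2, 3 and 6. Of the 4 blood markers, 0 had a symbol. ERBB2, which encodes HER2, was not analysed here. The part of these marker differences in the results below was not tested.

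In clone 3, 20 of the 21 tested members had a mean below the parental one, and their median difference was -0.56 on the log2 scale. The median over all 12147 tested genes was -0.0018. Differences ran from -1.58 for PYGO1 to 0.27 for CGNL1, the 1 member above its parental mean. By limma with Benjamini-Hochberg adjustment over all tested genes (adjusted p below 0.05, called from here on), 16 members were called lower and 0 higher in clone 3, against a background of 11.0% lower and 6.22% higher; at an unadjusted p below 0.05, 1 was higher. These counts are the values that chose the stretch and nothing is read from them.

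The shift was seen array by array. Relative to the parental mean of each gene, the median of the 21 members was -0.49, -0.53 and -0.64 in the clone 3 arrays. It was -0.18, -0.38 and -0.23 in the clone 6 arrays, -0.14, -0.07 and -0.03 in those of clone 2, -0.08, 0.04 and 0.15 in those of clone 1, and -0.06, 0.01 and 0.02 in the parental arrays themselves. Clone 3 lay apart from every other array, clone 6 came next, and clones 1 and 2 overlapped the parental arrays. The lowest group mean was that of clone 3 for 16 members, that of clone 6 for 4 (MYO5C, PRTG, TEX9 and MNS1) and the parental one for CGNL1. The highest was parental for 11 members, clone 1 for 9 and clone 2 for MYO1E. Clone 6 lay between clone 3 and both of clones 1 and 2 for 15 of 21.

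**Figure D1:**
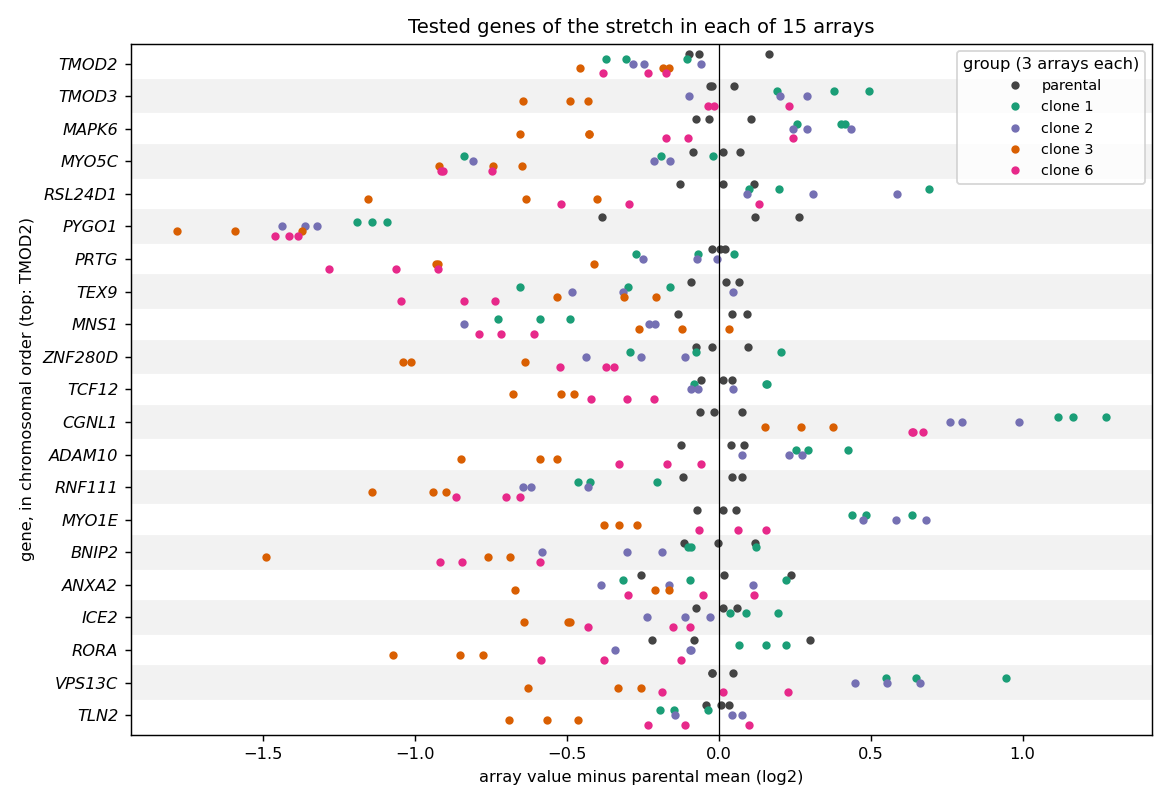
Array value minus the parental mean of the same gene (log2, horizontal axis) for each of the 21 tested genes of the stretch, in chromosomal order from top to bottom; each point is 1 array and colours mark the 5 groups. The clone 3 points lie left of 0 for nearly all genes, PYGO1 is low in all 4 clones, and CGNL1 is the gene with all clone arrays to the right.

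The stretch was chosen on the difference between clone 3 and parental. The differences among clones 1, 2 and 6 use none of those arrays. The members and tests were chosen with earlier results of these data known, so these differences are not an independent check. The spread that their tests use is estimated from all 15 arrays, parental and clone 3 included. With only the arrays compared, 7 members were called lower in clone 6 than in clone 1 in place of the 12 given next. Between clone 6 and clone 1, 12 of 21 members fell and 0 rose in clone 6 (limma), against a background of 7.07% lower and 5.61% higher; at an unadjusted p below 0.05, 16 were lower and 0 higher. The median member difference was -0.39, with 20 of 21 below 0, and the median over all genes was 0.0052. Between clone 6 and clone 2, 5 members fell and 0 rose, against 5.69% lower and 5.47% higher; at an unadjusted p below 0.05, 10 were lower and 0 higher. Here the median was -0.27, with 20 of 21 below 0, and that of all genes was 0.0001. Between clones 1 and 2, 0 members were called in either direction by limma, against a background of 0 in each direction; at an unadjusted p below 0.05, 0 were lower and 3 higher in clone 1, and each alternative fit called 0 lower. Their members' median difference was 0.11.

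The F test of limma across clones 1, 2 and 6 called 8 of 21 members, against a background of 11.7%. They were PRTG, MYO1E, CGNL1, VPS13C, ADAM10, TEX9, BNIP2 and TCF12. The 5 members that fell in clone 6 against both clone 1 and clone 2 were PRTG, TEX9, ADAM10, MYO1E and VPS13C, and 4.4% of all tested genes did so. Single arrays bore on these counts. Without clone 1 replicate 3 the clone 6 to clone 1 count was 6 and without clone 1 replicate 2 it was 7; the clone 6 to clone 2 count was 3 without clone 2 replicate 3 and also without clone 6 replicate 2; and the F test called 5 without clone 6 replicate 2 and also without clone 6 replicate 3. The median differences were steadier, from -0.47 to -0.35 and from -0.29 to -0.23 over the 15 arrays left out in turn.

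**Figure D2:**
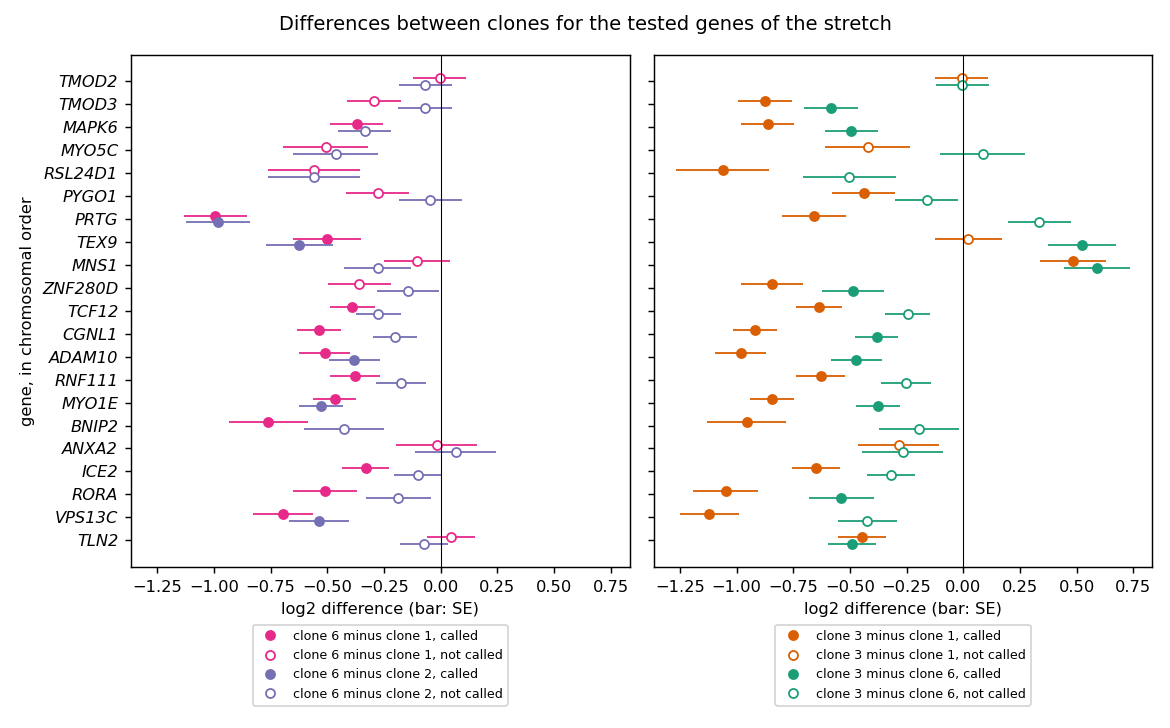
Log2 difference between clones for each tested gene of the stretch, with its standard error as a bar; filled points were called by limma at an adjusted p below 0.05 and open ones were not. In the left panel (clone 6 minus clones 1 and 2) nearly all points lie below 0, and PRTG is the farthest at -0.99 and -0.98. The right panel (clone 3 minus clones 1 and 6) shares the clone 3 arrays that chose the stretch.

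Comparisons of clone 3 with the other clones share its arrays with the one that chose the stretch, so their outcome was partly set by the choice; the values are a description and nothing is read from them. Against clone 1 the members' median was -0.66, with 16 called lower and 1 higher (background 8.15% and 8.65%). Against clone 2 it was -0.58, with 15 lower and 0 higher (6.96% and 8.79%); 1 was higher at an unadjusted p below 0.05. Against clone 6 it was -0.32, with 8 lower and 2 higher (4.06% and 4.96%), and that count of lower members was 3 without clone 3 replicate 3, 3 without clone 6 replicate 1 and 4 without clone 3 replicate 1. TMOD3, MAPK6, ZNF280D, CGNL1, ADAM10, MYO1E, RORA and TLN2 were the 8 called lower than in all the other clones, as were 1.89% of all tested genes.

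The parental arrays also helped to choose the stretch, so the comparisons of clones 1, 2 and 6 with them are not independent of the choice. In clone 1, 3 members were called lower and 4 higher (background 11.2% and 6.03%), with a median of -0.02. In clone 2, 2 were lower and 3 higher (11.5% and 5.47%), with a median of -0.13. In clone 6, 9 were lower and 1 higher (14.7% and 7.73%), with a median of -0.26. PYGO1 and RNF111 were called lower in all of clones 1, 2 and 6, and CGNL1 was called higher in all of them. MYO1E and VPS13C were called higher in clones 1 and 2 and not in clone 6.

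**Figure D3:**
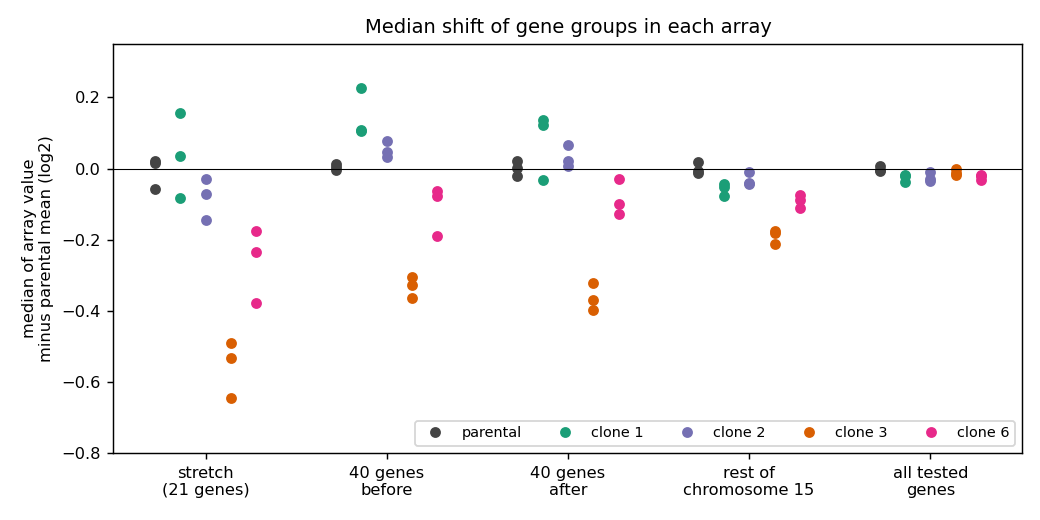
Median over the genes of a group of the array value minus the parental mean of each gene (log2, vertical axis), 1 point per array, for the stretch, the 40 tested genes on each side of it, the rest of chromosome 15 and all tested genes. In the stretch the clone 3 arrays lie between -0.64 and -0.49 and those of clone 6 between -0.38 and -0.18, whereas over all tested genes the medians of all arrays lie close to 0.

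4 promoters are shown, for genes with different orders of the groups: PYGO1, below parental in every clone; CGNL1, with its lowest mean in parental cells; ADAM10, lowest in clone 3 and lower in clone 6 than in clones 1 and 2; and VPS13C, above parental in clones 1 and 2 and lowest in clone 3. Other members followed other orders. Each is the 250 bases before the start site in the RefSeq promoter table (GRCh38.p14), 5′ to 3′ on the strand of the gene, at chr15:55588972-55589221 (minus strand), chr15:57376255-57376504 (plus), chr15:58749708-58749957 (minus) and chr15:62060448-62060697 (minus) in this order. Where a gene has several windows, the first was taken. Capitals mark the GC box core GGGCGG or its reverse complement.
PYGO1: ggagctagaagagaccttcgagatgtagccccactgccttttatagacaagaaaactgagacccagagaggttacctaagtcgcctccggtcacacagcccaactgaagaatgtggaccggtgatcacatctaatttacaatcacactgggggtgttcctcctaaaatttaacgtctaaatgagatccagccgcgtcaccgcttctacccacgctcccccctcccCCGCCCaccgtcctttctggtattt
CGNL1: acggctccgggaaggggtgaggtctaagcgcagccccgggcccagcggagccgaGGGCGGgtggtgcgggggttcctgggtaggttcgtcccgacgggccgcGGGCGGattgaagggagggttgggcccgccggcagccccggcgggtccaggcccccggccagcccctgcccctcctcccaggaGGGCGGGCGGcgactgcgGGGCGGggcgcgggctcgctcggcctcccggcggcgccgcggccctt
ADAM10: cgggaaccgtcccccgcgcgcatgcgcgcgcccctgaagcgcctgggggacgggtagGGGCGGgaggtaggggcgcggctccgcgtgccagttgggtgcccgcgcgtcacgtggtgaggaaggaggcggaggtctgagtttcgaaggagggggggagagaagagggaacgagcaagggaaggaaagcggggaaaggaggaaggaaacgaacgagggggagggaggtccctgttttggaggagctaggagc
VPS13C: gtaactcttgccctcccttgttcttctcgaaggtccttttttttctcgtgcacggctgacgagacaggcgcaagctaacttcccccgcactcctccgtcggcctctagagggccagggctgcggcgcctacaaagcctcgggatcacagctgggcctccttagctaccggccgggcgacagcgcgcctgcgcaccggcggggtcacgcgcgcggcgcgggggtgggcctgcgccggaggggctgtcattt
The GC box core was found once in the PYGO1 window, 5 times in that of CGNL1 (matches may overlap), once in that of ADAM10 and not in that of VPS13C, on either strand. All 24 members with a symbol had a promoter in the table, and 13 of them held the core, as did 42.3% of 27305 promoters of all genes. CCAAT was found in 7 of the 24 and in 33% of all, TATAAA in 2 and 11.1%, and the E-box CANNTG, the kind of sequence that TCF12 binds, in 16 and 62.2%, on both strands. TATAAA was found 1 time in the PYGO1 window, and CANNTG 1 time in PYGO1, 2 times in ADAM10, 1 time in VPS13C and 0 times in CGNL1. The median GC content was 64.2% in the member promoters and 58.0% in all, and the median number of CpG dinucleotides was 19.5 and 11. A match is a description of letters in these windows and not a binding site.

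ADAM10 is a membrane protease that sheds the outer parts of surface proteins such as NOTCH receptors and ligands of the EGF receptor family. It read 9.03, 9.24 and 9.19 in parental cells, 9.41, 9.45 and 9.58 in clone 1, 9.23, 9.39 and 9.43 in clone 2, 8.56, 8.62 and 8.30 in clone 3, and 9.09, 8.83 and 8.98 in clone 6. Every clone 3 array lay below every other array, clone 6 lay below clones 1 and 2 and overlapped the parental arrays, and clone 1 lay above the parental ones. Clone 6 fell by 0.51 on the log2 scale against clone 1 (SE 0.11, limma adjusted p = 0.00582) and by 0.38 against clone 2 (adjusted p = 0.0355), with an F test adjusted p of 0.0122. Clone 3 was -0.66 from the parental mean, 1.58-fold lower. The call against clone 2 was lost without clone 2 replicate 2 or 3 or clone 6 replicate 2 or 3, with adjusted p up to 0.154, and the F test call without clone 6 replicate 2 (adjusted p = 0.0856).

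RNF111, also called Arkadia, is a ubiquitin ligase that marks inhibitors of TGF-beta signalling for destruction. Its values were 7.62, 7.79 and 7.82 in parental cells, 7.32, 7.28 and 7.54 in clone 1, 7.10, 7.12 and 7.31 in clone 2, 6.60, 6.85 and 6.80 in clone 3, and 7.04, 6.88 and 7.09 in clone 6. All clone arrays lay below all parental ones, in the order clones 1 and 2, which overlapped, then clone 6, then clone 3. The differences from the parental mean were -0.36, -0.57, -0.99 and -0.74 in clones 1, 2, 3 and 6 (SE 0.11). RNF111 fell in clone 6 against clone 1 (-0.38, SE 0.11, adjusted p = 0.0324, limma); that call was lost without clone 1 replicate 3 or clone 6 replicate 2, with adjusted p up to 0.139. Its fall in clone 1 against parental (adjusted p = 0.0304) was lost without any of parental replicates 2 and 3 and clone 1 replicates 1 and 2 (adjusted p up to 0.118).

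MAPK6 encodes ERK3, an atypical MAP kinase. The arrays gave 7.54, 7.58 and 7.72 in parental cells, 8.03, 7.87 and 8.02 in clone 1, 7.86, 8.05 and 7.90 in clone 2, 7.18, 7.18 and 6.96 in clone 3, and 7.85, 7.44 and 7.51 in clone 6. Clones 1 and 2 lay above the parental arrays, clone 3 lay below all others, and clone 6 overlapped the parental arrays. Clone 3 was -0.50 from parental and -0.86 from clone 1. The fall in clone 6 against clone 1 (-0.37, SE 0.12, adjusted p = 0.0479, limma) stood at the threshold: leaving out any of 13 of the 15 arrays ended it, with adjusted p up to 0.199. The rise in clone 1 against parental (adjusted p = 0.0437) was ended by any of 9 arrays, with adjusted p up to 0.14.

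PYGO1 is a co-activator of Wnt signalling that works with beta-catenin. It had the largest difference of the stretch in clone 3, and its values were 5.61, 5.10 and 5.75 in parental cells, 4.29, 4.34 and 4.39 in clone 1, 4.05, 4.12 and 4.16 in clone 2, 4.11, 3.89 and 3.70 in clone 3, and 4.02, 4.10 and 4.07 in clone 6. All parental arrays lay above all arrays of every clone, and the 3 parental values were spread over a wider range than those of any clone. PYGO1 fell in clone 1 (-1.14, SE 0.14, adjusted p = 5.69e-05), in clone 2 (-1.38, SE 0.14, adjusted p = 9.47e-06) and in clone 6 (-1.42, SE 0.14, adjusted p = 3.43e-06), all by limma. In clone 3 the difference was -1.58, 2.99-fold. Clones 1, 2 and 6 were not called apart from each other (F test adjusted p = 0.364).

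PRTG, protogenin, is a transmembrane protein of the immunoglobulin superfamily known from embryonic development. Its values were 5.80, 5.82 and 5.84 in parental cells, 5.75, 5.55 and 5.87 in clone 1, 5.75, 5.81 and 5.57 in clone 2, 5.41, 4.89 and 4.90 in clone 3, and 4.76, 4.54 and 4.90 in clone 6. Clones 1 and 2 overlapped the parental arrays, while clones 3 and 6 lay below all of these and overlapped each other. PRTG had the smallest F test adjusted p of the stretch, 0.000171. It fell in clone 6 against clone 1 (-0.99, SE 0.14, adjusted p = 0.000213) and against clone 2 (-0.98, SE 0.14, adjusted p = 0.000266), 1.99-fold in the former (limma). From the parental mean, clone 6 was -1.09 and clone 3 -0.76.

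Several products work on actin filaments, vesicles and junctions. CGNL1, paracingulin, links cell junctions to the regulation of the actin skeleton. It read 5.98, 5.88 and 5.84 in parental cells, 7.18, 7.07 and 7.02 in clone 1, 6.89, 6.66 and 6.70 in clone 2, 6.05, 6.17 and 6.28 in clone 3, and 6.54, 6.57 and 6.54 in clone 6. No 2 groups overlapped, and the order was parental, clone 3, clone 6, clone 2, clone 1 from low to high. CGNL1 rose against parental in clone 1 (1.19, SE 0.10, adjusted p = 1.12e-06, 2.27-fold), clone 2 (0.85, SE 0.10, adjusted p = 2.4e-05) and clone 6 (0.65, SE 0.10, adjusted p = 0.000152) by limma, and clone 3 was at 0.27 (SE 0.10). Thus CGNL1 was above parental and yet clone 3 had the lowest value among the clones, -0.92 from clone 1. It fell in clone 6 against clone 1 (-0.54, SE 0.10, adjusted p = 0.00151) and was not called between clones 6 and 2 (-0.20, SE 0.10, adjusted p = 0.217).

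MYO1E is a class I myosin that ties membranes to actin. Its values were 7.61, 7.56 and 7.48 in parental cells, 7.99, 8.18 and 8.03 in clone 1, 8.23, 8.02 and 8.13 in clone 2, 7.22, 7.28 and 7.17 in clone 3, and 7.70, 7.61 and 7.48 in clone 6. Clones 1 and 2 lay above all other arrays, clone 6 overlapped the parental arrays, and clone 3 lay below all. MYO1E rose in clone 1 (0.52, SE 0.10, adjusted p = 0.00151) and clone 2 (0.58, SE 0.10, adjusted p = 0.000673) against parental, and fell in clone 6 against clone 1 (-0.47, SE 0.10, adjusted p = 0.00411) and clone 2 (-0.53, SE 0.10, adjusted p = 0.0018), by limma. Clone 3 was -0.33 from parental and -0.91 from clone 2.

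MYO5C is a class V myosin that carries secretory vesicles in epithelial cells. It gave 8.38, 8.47 and 8.53 in parental cells, 7.62, 8.27 and 8.44 in clone 1, 7.65, 8.25 and 8.30 in clone 2, 7.71, 7.81 and 7.54 in clone 3, and 7.55, 7.54 and 7.71 in clone 6. In clones 1 and 2 the first replicate lay near the values of clones 3 and 6 and the other arrays lay near the parental range. MYO5C fell in clone 6 against parental (-0.86, SE 0.19, adjusted p = 0.00332, limma), clone 3 was -0.77 from parental, and the F test did not call it (adjusted p = 0.139). TLN2, a talin that couples integrins to actin, gave 5.61, 5.69 and 5.66 in parental cells, 5.46, 5.62 and 5.51 in clone 1, 5.51, 5.73 and 5.70 in clone 2, 5.09, 4.96 and 5.19 in clone 3, and 5.42, 5.54 and 5.75 in clone 6. Its clone 3 arrays lay below all others, which overlapped, and it was not called in clones 1, 2 or 6 against parental or among these clones (F test adjusted p = 0.752). Clone 3 was -0.57 from parental and between -0.56 and -0.45 from the other clones.

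TMOD2 and TMOD3 are tropomodulins, which cap the slow-growing ends of actin filaments. The brighter TMOD3 probe set lay between 8.10 and 8.32 in clone 3, between 8.72 and 8.80 in parental cells and between 8.65 and 9.24 in the other clones, so that clone 3 was apart from the rest. Its difference from parental in clone 3 was -0.52 (SE 0.12). TMOD3 had a second, dimmer probe set with a parental mean of 3.48 and differences of 1.98, 1.28, 0.56 and 1.49 in clones 1, 2, 3 and 6. Those of the brighter set were 0.35, 0.13, -0.52 and 0.06, so that the sets differed in sign in clone 3. With the mean of both sets the TMOD3 difference in clone 3 was 0.017. BNIP2 also had a second set, with a parental mean of 3.83 and differences of 0.12, 0.36, 0.08 and 0.14 in the same order, and with the mean of both its call in clone 6 against parental (-0.78, SE 0.17, adjusted p = 0.00392), its call in clone 6 against clone 1 and its F test call were lost (adjusted p = 0.0702, 0.0577 and 0.0947). TMOD2 lay between 3.95 and 4.57 over all arrays and was called in no comparison. ANXA2, a calcium-dependent membrane-binding annexin, lay between 4.95 and 5.86, its groups overlapped throughout, and it was called in none either.

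TCF12, RORA, ZNF280D and ICE2 act in the nucleus, and each was lower in clone 3 than in all other arrays. TCF12 is an E protein, a helix-loop-helix factor that binds E-boxes. Its values were 7.77, 7.84 and 7.87 in parental cells, 7.74, 7.99 and 7.98 in clone 1, 7.74, 7.76 and 7.88 in clone 2, 7.15, 7.35 and 7.31 in clone 3, and 7.41, 7.53 and 7.61 in clone 6. Clone 6 lay between clone 3 and the rest without overlap. TCF12 fell in clone 6 against clone 1 (-0.39, SE 0.10, adjusted p = 0.0169, limma) and was not called against clone 2 (-0.27, SE 0.10, adjusted p = 0.0945). Clone 3 was -0.56 from parental. The call against clone 1 was lost without clone 1 replicate 2 or 3 or clone 6 replicate 1 (adjusted p up to 0.0721). The F test call (adjusted p = 0.0376) was lost without any of 8 arrays (up to 0.133), and the fall in clone 6 against parental (adjusted p = 0.034) without any of 5 (up to 0.113).

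RORA is a nuclear receptor linked to circadian and lipid gene programmes. It gave 5.02, 5.54 and 5.16 in parental cells, 5.31, 5.39 and 5.46 in clone 1, 5.15, 5.14 and 4.90 in clone 2, 4.39, 4.46 and 4.17 in clone 3, and 5.11, 4.86 and 4.65 in clone 6. Clone 6 lay below clone 1 and overlapped clone 2 and the parental arrays. RORA fell in clone 6 against clone 1 (-0.51, SE 0.14, adjusted p = 0.0269, limma), which was lost without clone 1 replicate 2 or 3 or clone 6 replicate 2 or 3 (adjusted p up to 0.13), and clone 3 was -0.90 from parental. ZNF280D, a zinc finger protein, gave 6.38, 6.43 and 6.55 in parental cells, 6.16, 6.38 and 6.66 in clone 1, 6.02, 6.34 and 6.19 in clone 2, 5.44, 5.81 and 5.41 in clone 3, and 6.08, 5.93 and 6.11 in clone 6. Clone 6 lay just above clone 3 and below the parental arrays, and ZNF280D was called lower in clone 6 than in parental cells (-0.41, SE 0.14, adjusted p = 0.0403, limma) but not among clones 1, 2 and 6 (F test adjusted p = 0.22). The former was lost without any of 7 arrays, with adjusted p up to 0.14. Clone 3 was -0.90 from parental.

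ICE2 is a subunit of the little elongation complex, which serves transcription of small nuclear RNA genes. Its values were 8.35, 8.22 and 8.30 in parental cells, 8.38, 8.33 and 8.48 in clone 1, 8.05, 8.18 and 8.26 in clone 2, 7.79, 7.80 and 7.65 in clone 3, and 8.20, 7.86 and 8.14 in clone 6. The clone 6 arrays lay below the parental and clone 1 arrays and overlapped those of clone 2. The fall in clone 6 against clone 1 (-0.33, SE 0.11, adjusted p = 0.0488, limma) was ended by leaving out any of 13 arrays, with adjusted p up to 0.23. Clone 3 was -0.54 from parental and -0.65 from clone 1.

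VPS13C moves lipids between membranes. It read 8.25, 8.25 and 8.32 in parental cells, 8.82, 8.92 and 9.22 in clone 1, 8.72, 8.94 and 8.83 in clone 2, 7.94, 8.02 and 7.65 in clone 3, and 8.50, 8.09 and 8.29 in clone 6. Clones 1 and 2 lay above the parental arrays, clone 6 overlapped the parental ones and clone 3 lay below all. VPS13C rose in clone 1 (0.71, SE 0.13, adjusted p = 0.00137, 1.64-fold) and clone 2 (0.56, SE 0.13, adjusted p = 0.00771) against parental, by limma. Clone 3 was -0.41 (SE 0.13) from parental but -1.12 from clone 1, a 2.17-fold difference. VPS13C fell in clone 6 against clone 1 (-0.70, SE 0.13, adjusted p = 0.00215) and clone 2 (-0.54, SE 0.13, adjusted p = 0.0129); the latter was lost without clone 2 replicate 2 or clone 6 replicate 2 (adjusted p up to 0.0736).

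BNIP2 is a BCL2-interacting protein. Its values were 6.22, 6.45 and 6.33 in parental cells, 6.24, 6.23 and 6.45 in clone 1, 6.14, 6.03 and 5.75 in clone 2, 5.57, 5.64 and 4.84 in clone 3, and 5.74, 5.49 and 5.41 in clone 6. Clones 3 and 6 overlapped each other and lay below all other arrays, and clone 3 replicate 3 was the lowest. BNIP2 fell in clone 6 against clone 1 (-0.76, SE 0.17, adjusted p = 0.00838, limma; 0.0577 with the mean of both probe sets) and was not called against clone 2 (-0.43, SE 0.17, adjusted p = 0.142), while clone 3 was -0.98 from parental. Its F test call (adjusted p = 0.0218) was lost without clone 1 replicate 3 or clone 6 replicate 2 or 3 (up to 0.101). RSL24D1, which helps to assemble the large ribosomal subunit, gave 7.77, 7.52 and 7.67 in parental cells, 8.34, 7.75 and 7.85 in clone 1, 8.24, 7.96 and 7.74 in clone 2, 7.25, 7.02 and 6.50 in clone 3, and 7.78, 7.36 and 7.13 in clone 6. Clone 3 lay below parental cells and clones 1 and 2 and overlapped clone 6, and clones 1, 2 and 6 were not called apart (F test adjusted p = 0.116). Clone 3 was -0.73 (SE 0.20) from parental, with the widest standard error of the stretch.

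MNS1, a protein of cilia and sperm flagella, did not share the low values of clone 3. It read 4.34, 4.52 and 4.57 in parental cells, 3.75, 3.99 and 3.89 in clone 1, 4.25, 3.64 and 4.27 in clone 2, 4.22, 4.51 and 4.36 in clone 3, and 3.69, 3.76 and 3.87 in clone 6. Clone 3 overlapped the parental arrays, with a difference of -0.12 (SE 0.15), whereas clones 1 and 6 lay below both. MNS1 fell in clone 1 (-0.60, SE 0.15, adjusted p = 0.00926) and clone 6 (-0.70, SE 0.15, adjusted p = 0.00235) against parental by limma. TEX9, named for its expression in testis, gave 4.02, 3.86 and 3.98 in parental cells, 3.30, 3.79 and 3.65 in clone 1, 3.47, 3.64 and 4.0 in clone 2, 3.64, 3.74 and 3.42 in clone 3, and 2.90, 3.21 and 3.11 in clone 6. Clone 6 lay below every other array. These values were dim, in or below the range of ONECUT1 (3.00 to 3.63), which did not pass the filter. TEX9 fell in clone 6 against clone 1 (-0.50, SE 0.15, adjusted p = 0.0352) and clone 2 (-0.62, SE 0.15, adjusted p = 0.0113) by limma. The first call was lost without clone 1 replicate 2 or 3 or clone 6 replicate 1 or 3 (adjusted p up to 0.154) and the second without clone 2 replicate 3 (0.0605); the F test call (adjusted p = 0.0196) was lost without clone 6 replicate 1 or 3 (up to 0.0963). Clone 3 was -0.35 (SE 0.15) from parental.

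The low values of clone 3 did not begin or end with the listed genes. In chromosomal order, the 3 nearest tested genes before the stretch were MIR4713, GLDN and DMXL2, with clone 3 differences from parental of 0.01, 0.01 and -0.24. The DMXL2 arrays gave 6.90, 6.99 and 6.95 in parental cells, 7.14, 7.21 and 7.42 in clone 1, 6.91, 6.94 and 6.98 in clone 2, 6.84, 6.65 and 6.61 in clone 3, and 6.98, 6.70 and 7.10 in clone 6, so that clone 3 lay below all parental and clone 1 arrays. The 3 nearest after it were TPM1, a tropomyosin, RPS27L and APH1B, a subunit of gamma-secretase, at -0.21, -0.50 and -0.36. RPS27L, a close relative of a ribosomal protein, gave 4.02, 4.55 and 4.14 in parental cells, 3.98, 4.27 and 4.42 in clone 1, 3.92, 4.20 and 4.24 in clone 2, 3.45, 3.95 and 3.82 in clone 3, and 3.86, 3.99 and 3.89 in clone 6, with clone 3 below all parental arrays. MIR4713 lay between 3.58 and 4.16, GLDN between 3.52 and 4.13, TPM1 between 6.09 and 6.74, and APH1B between 4.83 and 5.89 over all 15 arrays. Of the 3 genes on each side, only RPS27L was called in clone 3 against parental (limma adjusted p = 0.0383). That call was lost without any of 4 arrays (adjusted p up to 0.19).

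8 further tested genes lay within the stretch in gene order but are not on the list: BCL2L10, MIR1266, PIERCE2, TCF12-DT, LINC00926, CCNB2, C2CD4A and C2CD4B. Their median difference in clone 3 was -0.24. CCNB2, a mitotic cyclin, gave 8.48, 8.50 and 8.59 in parental cells, 8.58, 8.45 and 8.62 in clone 1, 8.62, 8.24 and 8.64 in clone 2, 7.62, 7.43 and 7.51 in clone 3, and 7.56, 7.67 and 7.51 in clone 6, the lowest in clones 3 and 6, which overlapped each other and no other group. It fell in clone 6 against clone 1 (-0.97, SE 0.11, adjusted p = 3.33e-05) and clone 2 (-0.92, SE 0.11, adjusted p = 5.5e-05) by limma. C2CD4A lay between 5.63 and 5.89 in clone 3 and between 6.31 and 6.83 in all other arrays.

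The 40 tested genes before the stretch had a median of -0.33 in clone 3 against parental, with 17 called lower and 0 higher, and the 40 after it -0.39, with 19 and 0. The other 275 tested genes of chromosome 15 had a median of -0.15, with 87 lower and 6 higher. The whole of chromosome 15 (384 tested genes) had the lowest median of 23 chromosomes in clone 3 against parental, -0.23, with 36.7% called lower. Its median was the lowest of 23 against clone 1 (-0.21) and clone 2 (-0.20) too and the next to lowest against clone 6 (-0.12). The medians of the 40 genes before and after also lay below 0 in each clone 3 array, at -0.30, -0.33 and -0.36 before and -0.40, -0.37 and -0.32 after. In these arrays 34, 34 and 34 of the 40 genes before and 30, 34 and 31 of the 40 after lay below their parental means.

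In windows of 20 tested genes along the chromosome, the lowest clone 3 median, -0.55, was that of the window from MAPK6 to BNIP2. This window holds 14 members, and 12 of its 20 genes were called lower. The window from KATNBL1 to DISP2, farther towards the centromere and holding no member, reached -0.45, with 14 of 20 genes called lower. The next window, from KNSTRN to RPAP1, was at -0.12. The windows from PLIN1 to VPS33B and from SV2B to PCSK6, near the end of the long arm, were at 0.02 and 0.01. By window median, the label of the stretch therefore names the lowest portion of a longer and uneven run of low values. These genes were chosen for that. In clone 6 the lowest windows were MAPK6 to BNIP2 and KATNBL1 to DISP2, at -0.36 and -0.30. In clones 1 and 2 the MAPK6 to BNIP2 window was at 0.0016 and -0.06.

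**Figure D4:**
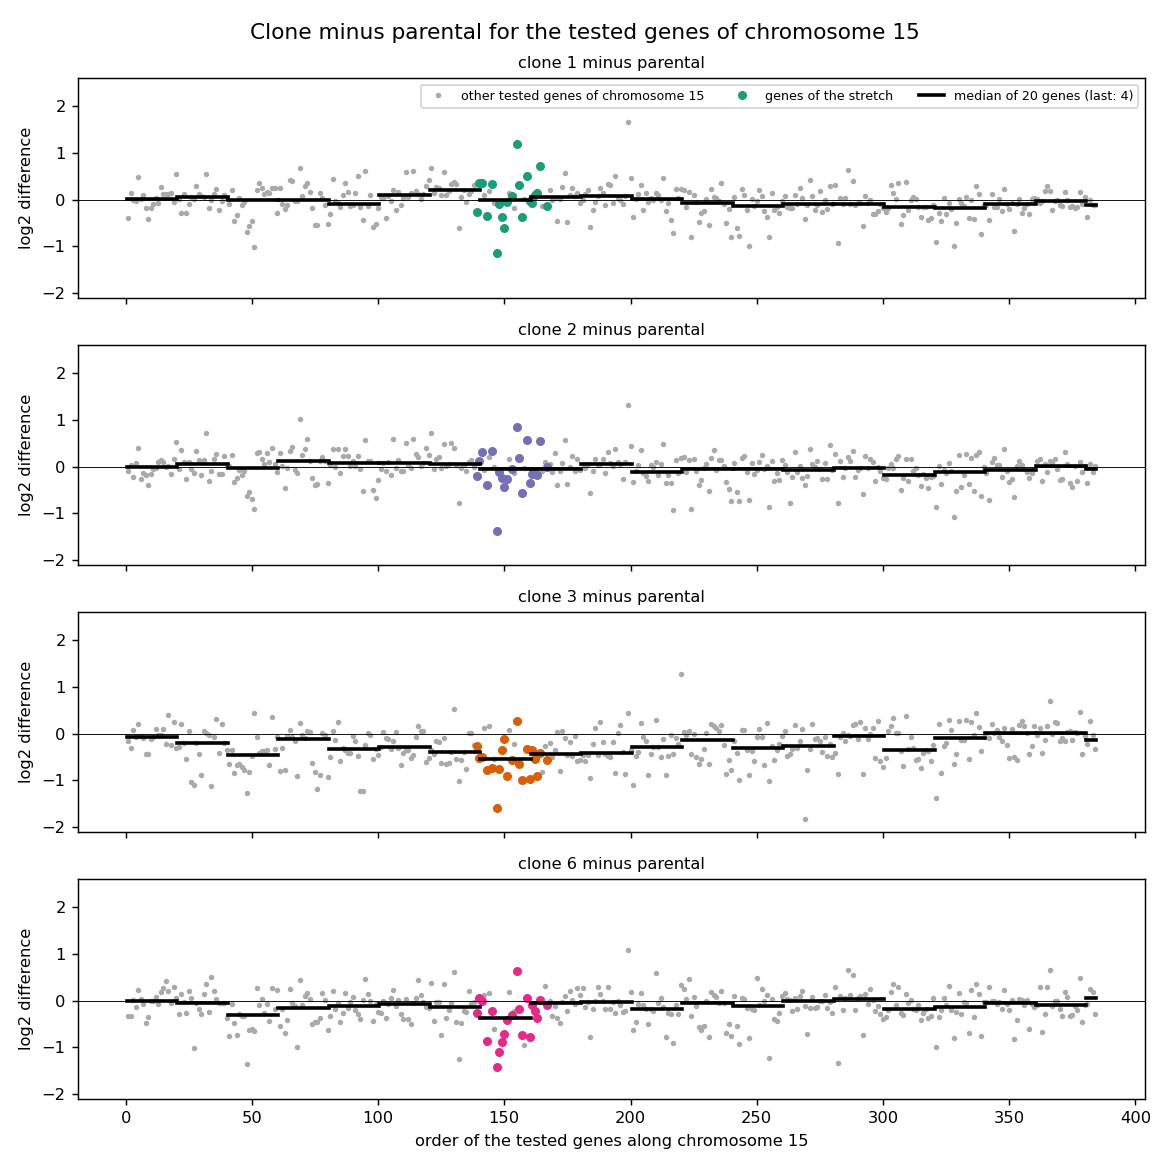
Clone minus parental difference (log2, vertical axis) of the 384 tested genes of chromosome 15 in their order along it (horizontal axis), 1 panel per clone; coloured points are the 21 tested genes of the stretch, grey points the other genes, and black lines the median of each 20 genes (4 in the last). In clone 3 the black lines lie below 0 along most of the chromosome and are lowest, at -0.55, at the stretch.

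Among the clones that took no part in the choice, the flanks can be set beside the stretch. In clone 6 against clone 1 the median was -0.39 over the members, -0.29 over the 40 genes before (15 called lower, 2 higher), -0.16 over the 40 after (5 and 0) and -0.03 over the rest of the chromosome (23 and 5 of 275). In clone 6 against clone 2 these medians were -0.27, -0.24, -0.11 and -0.07. Whether the members differ from their flanks was not tested.

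The members differed in signal. For the 10 members with a mean of 7 or over, the median of clone 3 minus clone 1 was -0.85. It was -0.75 for the 6 between 5 and 7 and -0.01 for the 5 under 5, which ran from -1.05 (RORA) to 0.48 (MNS1), so that this median hides members on both sides. The genes of chromosome 15 outside the list followed the same order, at -0.45, -0.20 and -0.01 for 103, 141 and 119 genes. How signal over background bears on the size of a difference was not tested.

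Relatives and partners of the products were listed by function, 137 genes in 14 lists, of which 87 were tested, 3 of them (SMAD3, TPM1 and ELL3) also on chromosome 15. Against parental, 8 were called lower and 6 higher in clone 1, 11 and 6 in clone 2, 13 and 9 in clone 3, and 23 and 9 in clone 6. As shares, 9.2%, 12.6%, 14.9% and 26.4% were lower, beside the 11.2%, 11.5%, 11.0% and 14.7% of all tested genes given above. Their medians were -0.02, -0.06, -0.02 and -0.13. Of the 85 calls on these genes, which are limma's against the shared parental arrays, 37 were lost without at least 1 array.

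Of 17 tested relatives and partners of ADAM10, 3 fell and 1 rose in clone 3, and 3 fell and 1 rose in clone 6. TIMP1, an inhibitor of metalloproteinases, fell by 1.17 in clone 3 and by 1.21 in clone 6. TSPAN14, a tetraspanin that escorts ADAM10 to the surface, fell in clones 1, 3 and 6, with differences of -0.56, -0.53 and -0.44. ADAM9, a related protease, rose by 0.52, 0.50 and 0.53 in clones 1, 2 and 6. The calls named here held without any 1 array. The related sheddase ADAM17 was called in none of the clones.

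Of 9 tested relatives and adaptors of NEDD4, 1 fell and 1 rose in clone 3, and 4 fell and 1 rose in clone 6. The ubiquitin ligase WWP1 fell by 0.97 in clone 3 and by 0.78 in clone 6. The adaptor ARRDC3 rose by 0.90 and 0.91 there, and these calls were lost without at least 1 array, with adjusted p up to 0.155 and 0.128. Calls that held without any 1 array were also those of WWP2 (lower in clone 1), ITCH (lower in clone 2) and ARRDC1 (lower in clone 6). Of 6 tested RNF111 partners in TGF-beta signalling, 1, SMAD3, was called in clones 3 and 6, lower by 0.47 and 0.45; either call was lost without 1 array (adjusted p = 0.0531 and 0.0522).

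Of 12 tested vesicle transport partners, 2 fell and 1 rose in clone 3, and 4 fell and 2 rose in clone 6. UNC13B, a priming factor for vesicle fusion, fell by 0.66 in clone 3 and by 0.84 in clone 6 but rose by 0.50 in clone 1 and by 0.42 in clone 2. SYTL5, a RAB27 effector, rose by 1.17 in clone 3 and by 1.06 in clone 6. UNC13D, another priming factor, fell by 1.62 in clone 6. The calls named here held without any 1 array.

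Of 9 tested annexins and S100A10, 3 fell and 1 rose in clone 3, 4 fell and 1 rose in clone 1 (ANXA7, by 0.33, lost without at least 1 array with adjusted p up to 0.0977), and 4 fell and 0 rose in each of clones 2 and 6 (limma; at an unadjusted p below 0.05, 1 and 0 were higher). S100A10, the partner of ANXA2, fell in clones 1, 2, 3 and 6, with differences of -0.56, -0.47, -0.41 and -0.49, although its call in clone 3 was lost without at least 1 array (adjusted p up to 0.0834). ANXA1 was also called lower in clones 1, 2, 3 and 6, and its clone 3 call was lost without any of 5 arrays (adjusted p up to 0.162). ANXA11 was called in the same clones and ANXA6 in clone 3. The ANXA11 calls in clones 1 and 2 were lost without at least 1 array (adjusted p up to 0.105 and 0.122). ANXA9 fell in clones 1, 2 and 6, with differences of -1.49, -1.47 and -1.53, and its difference in clone 3 was 0.11. Of 11 tested actin relatives of TMOD3, TLN2 and MYO1E, 0 fell and 2 rose in clone 3 by limma, and 1 was lower at an unadjusted p below 0.05. Those that rose were the class I myosins MYO1D, by 0.62, and MYO1C, by 0.40, the latter lost without at least 1 array (adjusted p up to 0.0881).

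In the VPS13 family, VPS13D rose in all 4 clones, by 0.53, 0.43, 0.47 and 0.36 in clones 1, 2, 3 and 6. VPS13A and VPS13B fell in clone 6, by 0.63 and by 0.40, and neither was called in clone 3. The clone 6 calls of VPS13D and VPS13B were lost without at least 1 array (adjusted p up to 0.0832 and 0.144). TBP, the TATA-binding protein, which works beside the listed GTF2A2, fell in all 4 clones, with differences of -0.39, -0.43, -0.79 and -0.54 in clones 1, 2, 3 and 6; the calls in clones 1 and 2 were lost without at least 1 array (adjusted p up to 0.0975 and 0.063). Among ER-phagy receptors, SEC62 rose in all 4 clones, by 0.63, 0.56, 0.40 and 0.75 in clones 1, 2, 3 and 6, and ATL3 rose by 0.90 in clone 3 and 0.38 in clone 6. The SEC62 call in clone 3 and the ATL3 call in clone 6 were lost without at least 1 array (adjusted p up to 0.129 and 0.111). In the lists for MAPK6, small nuclear RNA transcription and GPI anchor synthesis, the called genes (PAK2, MAPKAPK5, ELL3, ICE1, ELL and GPAA1) each had 1 call, lower in 1 clone, and each was lost without at least 1 array. The 2 tested E protein relatives and the 2 tested genes around ARPP19 were called in no clone by limma, and 0 and 0 of them passed an unadjusted p below 0.05 in clone 3.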

How the data were processed

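For each of 15 arrays, 3 in each of 5 groups, the authors deposited log2 expression values of 53617 probe sets. The submitters' processing notes name RMA, Affymetrix Expression Console 1.4.1 and Transcriptome Analysis Console. RMA aligns the arrays to a shared intensity distribution, which would largely remove a shift of most genes, and it compresses differences of dim probe sets. No build is given for the probe sets.

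Names came from the platform annotation and gene order from the RefSeq gene table (GRCh38.p14). Of the probe sets, 16098 (30%) had 1 symbol and 37519 none. A probe set was kept if it exceeded the 40th percentile of the array in 3 or more arrays, and the one with the highest mean stood for its gene, which left 12147 genes. limma 3.58.1 in R 4.3.3 fitted 1 mean per group to all 15 arrays (lmFit, eBayes, 10 residual degrees of freedom). P-values were adjusted within each of 10 comparisons and the F test (Benjamini-Hochberg), and called below 0.05. Fold sizes are powers of 2 of the log2 differences. Steps were tested on simulated data.

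The members, lists, tests and alternatives were chosen with earlier results of these data known. Values in every array are given for the 12 tested members with the largest difference in clone 3 and for further members called in clones 1, 2 or 6. Some called genes per list of relatives are named, and they are not always those with the smallest adjusted p. C2CD4A and CCNB2 were named after their values were seen. The alternatives changed the filter, the normalization (quantile, median centring), the fit (replicate block, only the arrays compared, trend and robust eBayes, weights per array), the probe sets averaged, the adjusted p required, or left out 1 array. Precision is limited by the number of arrays. Plots were made with matplotlib 3.10.9 and Python 3.11.15.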

Additional observations from a re-analysis of the deposited data

Results flagged for a closer look

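Clones 1, 2 and 6 were not used to choose the stretch, and their effects differed in direct tests by limma. Between clone 6 and clone 1, 12 of 21 members were called, all lower in clone 6, against a background of 7.07% lower. Between clone 6 and clone 2, 5 of 21 were called, all lower in clone 6, against 5.69% lower. The F test across clones 1, 2 and 6 called 8 of 21 members, against a background of 11.7%. Of these 8 calls, 4 were lost under at least 1 alternative. The orders given next are among clones 1, 2 and 6 only. The F test adjusted p was 0.000171 for PRTG and 0.0196 for TEX9, both lowest in clone 6. It was 0.00232 for MYO1E and 0.00406 for VPS13C, both higher in clones 1 and 2 than in clone 6. For CGNL1, highest in clone 1, it was 0.00359, and for ADAM10, lowest in clone 6, it was 0.0122. BNIP2, at 0.0218, and TCF12, at 0.0376, were also lowest in clone 6 among these clones. Over all 5 groups, ADAM10, BNIP2 and TCF12 were lowest in clone 3. No group of 4 or more arrays exists, so no single array was tested as an outlier.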

How the results depend on the processing

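Of 105 calls on members over all comparisons, 69 were kept under every alternative, 35 were lost under at least 1 and 1 more changed direction. That 1 is TMOD3 in clone 3 against parental, 0.017 (adjusted p = 0.964) with the mean of all probe sets, where its dimmer set enters. The counts of members called lower moved as follows. In clone 6 against clone 1 (12), the count was 7 with only the arrays compared, 6 at an adjusted p below 0.01, and 6 to 12 with each array left out. In clone 6 against clone 2 (5), it was 2 at an adjusted p below 0.01 and 3 to 7 with each array left out. In clone 3 against clone 6 (8), it was 2 with only the arrays compared, 2 at an adjusted p below 0.01, and 3 to 9 with each array left out. The F test (8) called 13 with array weights, 4 at an adjusted p below 0.01 and 5 to 9 with each array left out. Fits to fewer arrays have fewer degrees of freedom; the cause of the other moves was not tested. With each array left out, the counts were 2 to 3 in clone 1 and 2 to 3 in clone 2 against parental, 13 to 16 in clone 3, 7 to 9 in clone 6, 0 between clones 1 and 2, 15 to 16 in clone 3 against clone 1 and 13 to 15 against clone 2. Of 85 calls on relatives, 47 were kept under every alternative.

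With the replicate number as a block, the counts were 3, 2, 15 and 9 for clones 1, 2, 3 and 6 against parental, 0 for clone 1 against clone 2, 13 and 6 for clone 6 against clones 1 and 2, 16, 15 and 9 for clone 3 against clones 1, 2 and 6, and 11 in the F test. Deviations of same-numbered arrays from their group means correlated from -0.129 to 0.462 (median 0.0509), above 0.1 in 10 of 30 pairs. Those of arrays with different numbers correlated from -0.384 to 0.231 (median -0.0169). Of 15 arrays, 9 correlated best with their own number. The main fit did not take the numbers as pairing the samples, and whether same-numbered arrays share an effect was not tested.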
